A study of Cunninghamia lanceolata with 18 samples.

Results

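BEH4 belongs to the BES1/BZR1 family of transcription factors, which carry the brassinosteroid signal to the genome. The Chinese fir annotation held 2 genes that the study named as BEH4 homologs, Cula0030227 and Cula0014348 (shortened to Cl30227 and Cl14348 in the study). They were chosen from the 46723 genes of the count table because the study placed them among its brassinosteroid genes that differed between clone C1 and clone C11. Their levels in C1 against C11 are therefore a description, and the calls given for that contrast show only where the choice fell. The annotation as BEH4 is the study's and comes from matches in other species. Both genes had enough counts to pass the filter on low counts in every fit.

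Brassinosteroids are steroid hormones that promote cell elongation. In Arabidopsis they are perceived at the cell surface by a receptor kinase, and the signal stops a GSK3-like kinase from phosphorylating proteins of the BES1/BZR1 family. The unphosphorylated proteins act in the nucleus, where they activate growth genes and repress genes of brassinosteroid synthesis. Because this control acts on the protein, a transcript level does not give the activity of the factor. The study speculated that BEH4 may act upstream of KCS1, which encodes a 3-ketoacyl-CoA synthase of very-long-chain fatty acid elongation.

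Chinese fir (Cunninghamia lanceolata) is a conifer grown for timber, and its internode length sets the distance between whorls of branches. Polyadenylated RNA was sequenced from the upper phloem next to the apical bud (UP), the lateral bud (LB) and the apical bud (AB) of clone C1, which has longer internodes, and of clone C11, which has shorter ones. Tissue and clone made 6 groups of 3 biological replicates, 18 libraries in all. No treatment was applied, and each clone is 1 genotype, so the values describe these clones and not long or short internodes in general. The day of collection after bud sprouting differed with the clone, and the clone and the day cannot be told apart.

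The libraries held 24766529 to 32005160 counts on genes. Levels are given as CPM (each count relative to the scaled library total) after TMM scaling, whose factors ran from 0.852 to 1.09. The spread between replicates was unequal, with a biological coefficient of variation of 0.381 in C1 and 0.720 in C11. The identity of the tissues was not checked against marker genes. In bulk tissue, fewer cells of a type that express a gene and less RNA per cell cannot be told apart. Lengths of the genes were not at hand, so the level of one homolog was not set against that of the other.

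Transcripts of both homologs were scarcer in C1 than in C11 in the mean of every tissue. Cula0030227 had 0.778 to 6.61 CPM (median 1.65) over the 9 C1 libraries, against 0.0735 to 76.6 CPM (median 18.6) over the 9 C11 libraries. Cula0014348 had 9.50 to 36.5 CPM (median 19.2) in C1, against 4.15 to 194 CPM (median 55.0) in C11. For each homolog 8 of the 9 C11 libraries lay above every C1 library, whatever the tissue. Of all 27174 genes tested, 6.47% had at least as many. The exception was the same for both homologs, the third C11 library of UP.

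In UP, Cula0030227 had 1.32, 1.65 and 0.952 CPM in C1, against 21.2, 11.1 and 0.0735 CPM in C11. The C1 libraries lay close together, whereas the C11 libraries ran from the 2 counts of replicate 3 to the 551 counts of replicate 1. The exact Poisson interval (95%) of those 2 counts was 0.00890 to 0.266 CPM, which covers counting error only and stays below every C1 library. In LB it had 6.61, 3.74 and 0.778 CPM in C1, against 76.6, 51.6 and 18.6 CPM in C11, and the ranges did not overlap. In AB it had 3.05, 1.09 and 1.92 CPM in C1, against 57.2, 9.44 and 18.5 CPM in C11, again without overlap. The group means were 1.31 ± 0.349 CPM in C1 and 10.8 ± 10.6 CPM in C11 in UP, 3.71 ± 2.91 and 48.9 ± 29.1 CPM in LB, and 2.02 ± 0.981 and 28.4 ± 25.4 CPM in AB (SD, n = 3 each).

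Cula0014348 followed a like course with smaller differences. In UP it had 19.2, 17.1 and 15.9 CPM in C1, against 84.0, 39.9 and 4.15 CPM in C11. The C1 libraries again lay close together, and replicate 3 of C11 lay below all of them. In LB it had 36.5, 30.0 and 9.50 CPM in C1, against 194, 72.3 and 37.0 CPM in C11. These ranges did not overlap, but the highest C1 and the lowest C11 library nearly met. In AB it had 21.4, 9.57 and 29.8 CPM in C1, against 127, 55.0 and 45.0 CPM in C11, without overlap. The group means were 17.4 ± 1.68 CPM in C1 and 42.7 ± 40.0 CPM in C11 in UP, 25.3 ± 14.1 and 101.2 ± 82.5 CPM in LB, and 20.3 ± 10.2 and 75.6 ± 44.6 CPM in AB (SD, n = 3 each).

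**Figure D1:**
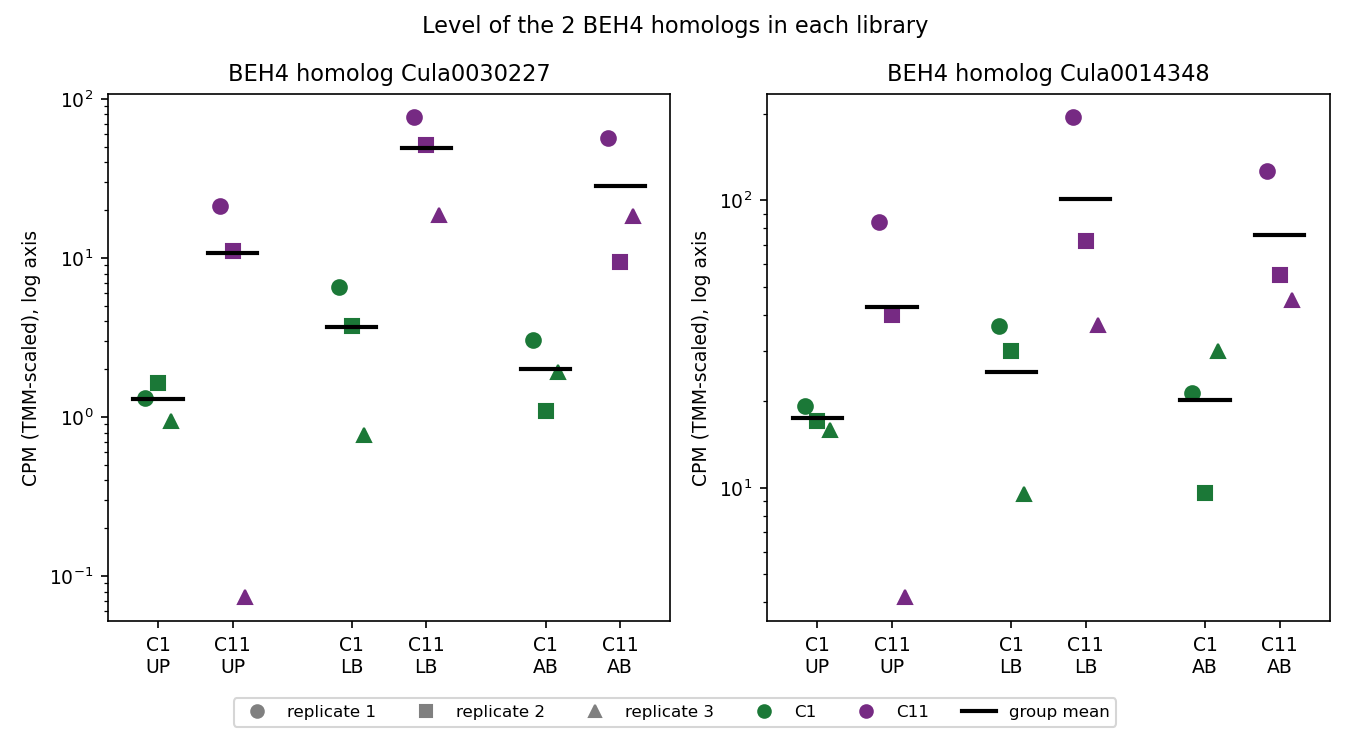
Level of each BEH4 homolog in every library, in CPM after TMM scaling on a log axis, with a panel for each gene. Each point is 1 library, its colour is the clone and its shape the replicate number, and bars are group means of 3 libraries. Except for replicate 3 of C11 in UP, all C11 points lie above the highest C1 point, which is 6.61 CPM for Cula0030227 and 36.5 CPM for Cula0014348.

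C1 lay below C11 without overlap for 13.8% of genes in LB, 13.2% in AB and 13.8% in UP. In LB and AB both homologs were among them, and in UP neither was. This is the contrast on which the homologs were chosen, so nothing is read from the count.

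On the log2 scale of edgeR, the change of Cula0030227 in C1 relative to C11 was -3.08 (SE 1.48) in UP, -3.73 (SE 0.90) in LB and -3.79 (SE 0.78) in AB. The mean of C11 was 8.25 times that of C1 in UP, 13.2 times in LB and 14.1 times in AB. The change of Cula0014348 was -1.33 (SE 0.92) in UP, -2.01 (SE 0.76) in LB and -1.88 (SE 0.55) in AB. Here the mean of C11 was 2.45 times that of C1 in UP, 4.0 times in LB and 3.73 times in AB. In both genes the change was smallest in UP, where its standard error was largest. The value in UP leaned on single libraries. Without replicate 3 of C11 it was -3.65 for Cula0030227 and -1.86 for Cula0014348, and without replicate 1 of C11 it was -2.08 and -0.33. In AB the change of Cula0030227 was -2.80 without replicate 1 of C11, and in LB that of Cula0014348 was -1.12 without replicate 1 of C11.

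At the thresholds of the study (fold change of at least 2 and adjusted p under 0.05), edgeR called Cula0030227 lower in C1 in AB and neither gene elsewhere. Of all genes tested it called 2.78% lower in AB, 2.22% in UP and 2.5% in LB. DESeq2, the tool of the study, called both genes lower in AB and only Cula0030227 lower in LB, and neither in UP. It called 6.2% of all genes lower in AB, 7.63% in LB and 7.13% in UP. These shares are over 33067, 33338 and 33273 genes. Those of edgeR are over the 23999 (AB), 24345 (LB) and 24167 (UP) genes that passed its filter, so the 2 sets of shares have unlike bases. Each homolog thus had values on both sides of the threshold. The DESeq2 log2 fold change of Cula0030227 was -3.80 (SE 0.73) in AB and -3.73 (SE 0.83) in LB, where it was called, and -3.08 (SE 1.30) in UP, where it was not. That of Cula0014348 was -1.89 (SE 0.59) in AB, where it was called, and -2.02 (SE 0.76) in LB and -1.33 (SE 0.91) in UP, where it was not. In LB same-numbered libraries of the clones deviated together, and with the replicate number as a block the changes were -3.95 for Cula0030227 and -1.89 for Cula0014348.

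The clone difference was of like size in the 3 tissues as far as these libraries show. For Cula0030227 the log2 change in UP minus that in AB was 0.77 (SE 1.59), that in UP minus that in LB 0.68 (SE 1.59), and that in LB minus that in AB 0.09 (SE 1.55). For Cula0014348 these differences were 0.61, 0.71 and -0.10, each with an SE of 1.17. Every one was smaller than its standard error, and errors of this size leave room for large differences between tissues.

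Counts of Cula0030227 as a percentage of those of Cula0014348 compare the genes within a library, so that depth and scaling drop out. In LB the percentage was 18.1, 12.5 and 8.18 in C1, against 39.4, 71.3 and 50.2 in C11. In AB it was 14.2, 11.4 and 6.44 in C1, against 45.1, 17.2 and 41.1 in C11. In both bud tissues every C11 library lay above every C1 library. In UP it was 6.84, 9.63 and 5.97 in C1, against 25.2, 27.7 and 1.77 in C11. Here 2 of the C11 libraries were higher and replicate 3 had the lowest value of all 18. That value rests on 2 counts of Cula0030227 beside 113 of Cula0014348, so its place as the lowest is uncertain. The means were 12.9 ± 4.98% in C1 and 53.7 ± 16.2% in C11 in LB, 10.7 ± 3.94% and 34.5 ± 15.1% in AB, and 7.48 ± 1.91% and 18.2 ± 14.3% in UP (SD, n = 3 each). The percentage rests on the contrast that chose the genes, and was not tested.

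**Figure D2:**
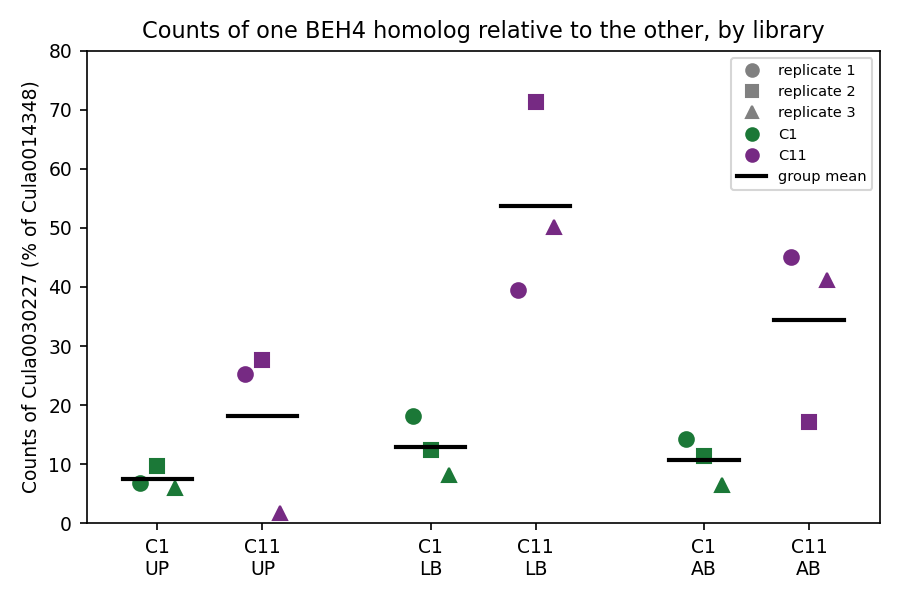
Counts of Cula0030227 as a percentage of the counts of Cula0014348 in each library, by clone and tissue, on a linear axis from 0. Points are libraries and bars are group means of 3 libraries. C11 libraries reach 71.3% in LB, and the C1 libraries stay at or below 18.1% in all tissues.

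Tissues were compared over both clones, since the choice of the genes did not use that contrast. The log2 difference between 2 tissues was computed within each clone and averaged with equal weight in a fit of all 18 libraries. The average is independent of the clone difference only if both clones have the same spread, which was not the case. The order of the group means was the same for both homologs, from C11 LB through C11 AB, C11 UP, C1 LB and C1 AB down to C1 UP. Within each clone LB was highest and UP lowest, but the ranges of neighbours in this order overlapped in every case. Counts of pairs of same-numbered libraries are given below as a description only. In C1, such libraries of UP and LB, and of LB and AB, did not all deviate together from their group means (lowest r -0.034 and -0.271). The share of all genes with such counts of pairs was not computed.

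For Cula0030227, UP against LB gave a log2 fold change of -1.84 (SE 0.81, 95% interval -3.58 to -0.10, edgeR adjusted p = 0.248). The unadjusted p was 0.0395, a value under 0.05 as for 17.9% of all genes, and no other tissue difference of the homologs had one under 0.05. UP was lower in 5 of the 6 pairs of same-numbered libraries of a clone. The difference was -1.498 (SE 1.15) within C1 and -2.18 (SE 1.15) within C11. For UP against AB it was -1.01 (SE 0.80, interval -2.72 to 0.70, edgeR adjusted p = 0.569), with UP lower in 4 of 6 pairs. For LB against AB it was 0.83 (SE 0.79, interval -0.87 to 2.52, edgeR adjusted p = 1.00), with LB higher in 5 of 6 pairs.

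For Cula0014348 the differences pointed the same way and were smaller. UP against LB gave -0.89 (SE 0.59, interval -2.15 to 0.37, edgeR adjusted p = 0.479) and was lower in 5 of 6 pairs. UP against AB gave -0.52 (SE 0.59, interval -1.77 to 0.73, edgeR adjusted p = 0.718), also lower in 5 of 6 pairs. LB against AB gave 0.37 (SE 0.58, interval -0.88 to 1.62, edgeR adjusted p = 1.00) and was higher in 4 of 6 pairs. The sign of that last difference turned without replicate 1 of C11 LB, to -0.055.

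None of the tissue differences of the 2 homologs passed the threshold, with edgeR or with DESeq2. In the same fit edgeR called 3.49% of 27174 genes for UP against LB and 2.62% for UP against AB. Same-numbered libraries of UP and AB deviated together in both clones, and with the replicate number as a block 1175 genes in place of 712 were called for UP against AB, without either homolog. For LB against AB it called 0.0%, although 1018 genes (3.75%) had an unadjusted p under 0.05, and DESeq2 called 16.

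**Figure D3:**
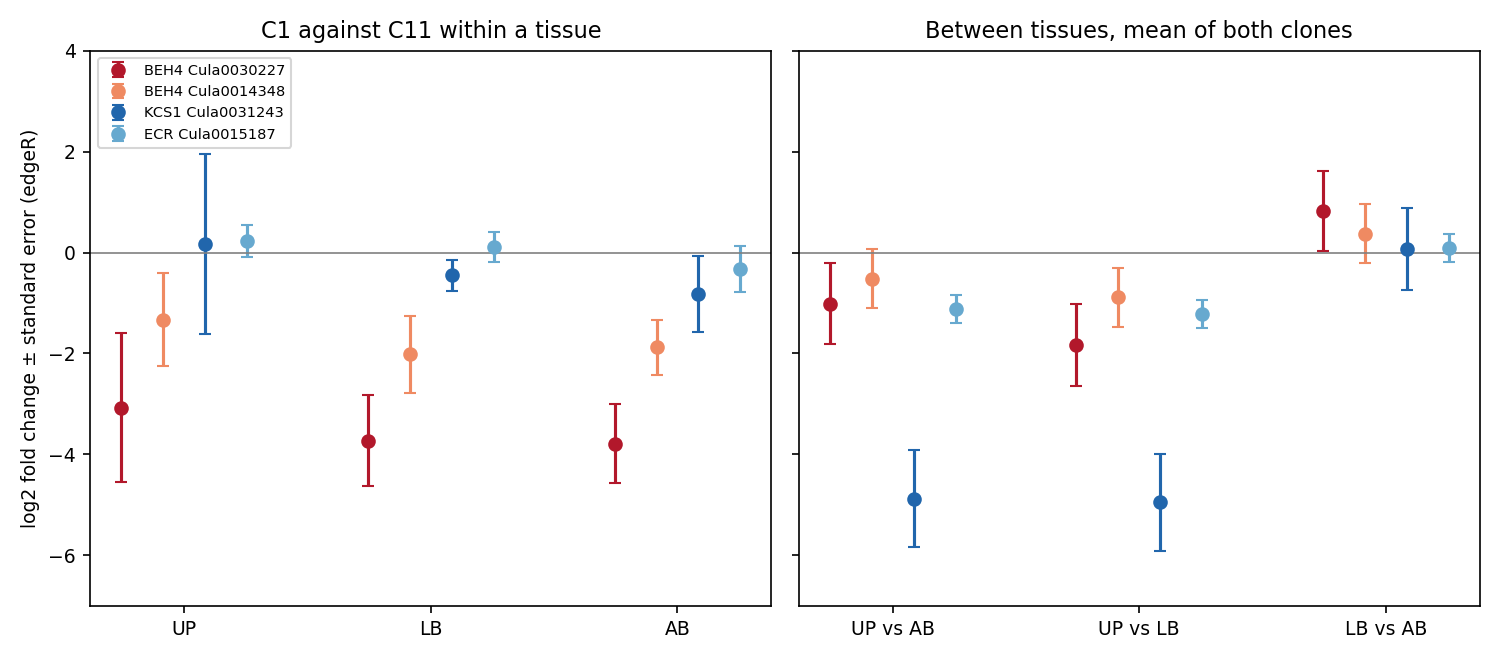
Log2 fold changes of edgeR with their standard errors for the 2 BEH4 homologs, KCS1 and ECR. The left panel gives C1 against C11 within each tissue (negative is lower in C1) and the right panel gives UP against AB, UP against LB and LB against AB, averaged over the clones. The homologs lie at -3.79 to -1.33 between the clones, where KCS1 and ECR lie at -0.83 to 0.23, and KCS1 lies at -4.88 and -4.95 for UP against AB and LB.

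The levels of the 2 homologs varied together over the libraries. Pearson's r of log2(CPM + 1) was 0.937 and Spearman's rho 0.973 over all 18 libraries, and the median r of Cula0030227 with all other genes was 0.00458. Because clone and tissue shape these values, the mean of each group was taken off each library. The remaining deviations, which the clone contrast does not contain, had an r of 0.935 and a rho of 0.901. Among 27173 genes, Cula0014348 ranked 3rd by this measure for Cula0030227, and 0.132% of genes were at least as alike to Cula0014348 as Cula0030227 was. The deviations had an r of 0.864 in C1 alone and 0.953 in C11 alone. Without replicate 3 of C11 in UP, the library farthest from its group, r was 0.863. The points share their library and its depth. Libraries with the same number deviated together over many genes in every pair of tissues of C11. Between UP and AB in C1 they did so weakly (lowest r 0.102). How far the 2 transcripts share reads was not tested, since their sequences were not analysed here.

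**Figure D4:**
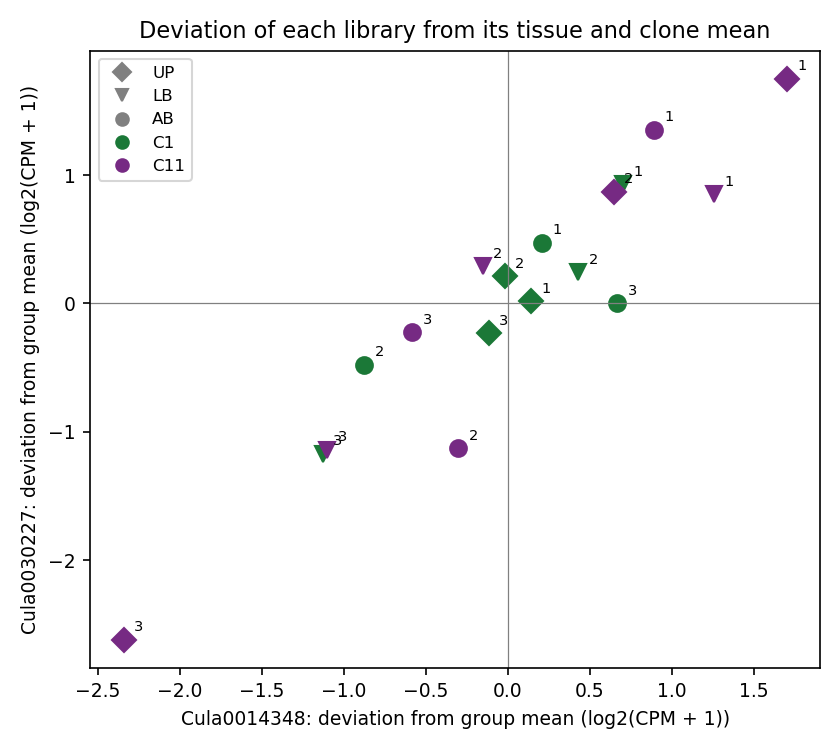
Deviation of each library from the mean of its tissue and clone, on the log2(CPM + 1) scale, with Cula0014348 on the x axis and Cula0030227 on the y axis. Each point is 1 of 18 libraries, its shape is the tissue, its colour the clone and the digit its replicate number. The points run along a rising line with r = 0.935, from C11 UP replicate 3 at the lower left to C11 UP replicate 1 at the upper right.

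The same libraries stood at the ends for both genes. In all 3 tissues, replicate 1 of C11 was the highest of the C11 libraries for each homolog, as it was for 9.7% of all genes. The replicate 1 libraries of C11 also had the lowest TMM factors of the 18, at 0.852 (UP), 0.904 (LB) and 0.903 (AB). Whether this bears on the levels of the homologs was not tested. In C1, replicate 1 of LB was the highest and, for both genes, replicate 3 of LB the lowest of the 9 libraries. Replicate 3 of C11 in UP was the lowest of all 18 libraries for both homologs. It was the lowest for 15.7% of all genes, more than any other library, and among the 6 UP libraries for 28.8%. Of the variance of Cula0030227 over the libraries, 50.2% went with the clone, 15.0% with the tissue and 18.9% with the replicate number within a clone. For Cula0014348 these shares were 29.3%, 10.6% and 36.8%. The replicate number within a clone splits the libraries into more groups than the clone does. This alone gives it a larger share, so the shares do not rank clone and replicate number. The medians over all genes were 16.5%, 9.34% and 30.3%. What a replicate number marks is not stated in the study.

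The genes most like the homologs over the 18 libraries carry identifiers without a name in the sources used here. For Cula0030227 they were Cula0028287 (r = 0.954), Cula0016183 (0.948), Cula0030690 (0.939), NewGene_6655 (0.938) and then Cula0014348. For Cula0014348 they were Cula0027082 (r = 0.954), Cula0007339 (0.946), Cula0028918 (0.939), then Cula0030227, and Cula0009908 (0.929). Apart from the homologs themselves, no gene was on both lists. These values describe 18 libraries that share clone, tissue and replicate number.

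Other brassinosteroid genes were taken from the 10 that the text of the study names by identifier. The study chose them on C1 against C11 in these libraries, so their clone calls are no independent evidence. DWF4 encodes a hydroxylase of brassinosteroid synthesis, and BAS1 an enzyme that inactivates brassinosteroids. CYP720B2 is a cytochrome P450, and LRK10 and SD25 are receptor-like kinases. Of the 10 genes, edgeR called 2 higher and 4 lower in C1 in AB, 2 higher and 5 lower in UP, and 3 higher and 4 lower in LB. The share of all genes called was 3.94% (UP), 4.27% (LB) and 4.55% (AB). All the genes called higher were BAS1 homologs. The 10 genes had a median log2 fold change of -4.02 (UP), -4.57 (LB) and -3.96 (AB), beside -0.06, -0.01 and -0.02 over all genes tested. The counts of calls rest on few libraries, and with 1 library left out they were 0 to 5 in AB, 0 to 10 in UP and 0 to 7 in LB.

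Of these genes, SD25 (Cula0018899) varied most like the homologs among replicates. Its deviations from the group means had an r of 0.838 with Cula0030227 and 0.917 with Cula0014348, which 0.754% and 0.298% of all genes reached. SD25 had 2.63, 3.24 and 2.07 CPM in C1 UP, against 84.7, 35.3 and 3.57 CPM in C11 UP. As for both homologs, replicate 3 was the low library of C11 in UP and replicate 1 the high one. In LB it had 5.61, 4.59 and 1.73 CPM in C1, against 57.5, 27.6 and 16.1 CPM in C11. In AB, where it had 2.77, 1.16 and 2.08 CPM in C1, against 27.4, 40.4 and 16.4 CPM in C11, replicate 2 was the highest of C11, unlike the homologs. Without replicate 3 of C11 in UP, r was 0.604 with Cula0030227 and 0.823 with Cula0014348, a setting chosen after seeing the data.

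Other genes of the list that were scarcer in C1 varied less like the homologs among replicates than SD25 did, with r of either sign. For the DWF4 homolog Cula0009250, C1 against C11 gave -5.42 in UP, -5.71 in LB and -5.63 in AB on the log2 scale, with edgeR adjusted p of 0.0562, 0.142 and 0.0609. Its deviations had an r of -0.28 with Cula0030227 and -0.31 with Cula0014348, and 33.3% and 32.6% of all genes had an r as low. The BAS1 homolog Cula0030167 was called lower in C1 in all tissues by edgeR, and its deviations had an r of -0.59 and -0.61. An r as low was found for 14.3% and 14.8% of all genes. For CYP720B2 (Cula0019011) r was 0.667 and 0.695, which 8.01% and 8.82% of all genes reached. The LRK10 homologs had positive r, of 0.565 and 0.671 (Cula0032790), 0.418 and 0.374 (Cula0029067) and 0.255 and 0.121 (Cula0016476). Between 10.2% and 41.7% of all genes reached these. These are descriptions over 18 libraries that share depth and replicate number.

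Between tissues 1 of the 10 genes was called, the BAS1 homolog Cula0022875. It was higher in UP than in AB by 2.31 (edgeR adjusted p = 0.0178) and higher in UP than in LB by 2.50 (edgeR adjusted p = 0.0105) on the log2 scale. It had 108, 100.9 and 125 CPM in C1 UP and 22.2, 13.6 and 30.9 CPM in C11 UP. In LB it had 26.8, 23.6 and 20.7 CPM in C1 and 5.17, 1.47 and 3.15 CPM in C11. UP was above LB in all libraries of either clone, where the means of the BEH4 homologs were lowest in UP.

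KCS1 (Cula0031243), which in the study's speculation may act after BEH4, was compared between the clones to see whether it differed where the homologs did. KCS1 had 4.11, 0.839 and 1.19 CPM in C1 UP, against 0.0769, 5.37 and 0.00 CPM in C11 UP. The 0 counts of C11 replicate 3, the library with the fewest counts of both homologs, allow a level of up to 0.110 CPM, that of 3 counts. In LB it had 36.5, 54.6 and 62.8 CPM in C1, against 52.9, 94.3 and 62.3 CPM in C11. In AB it had 81.4, 25.04 and 22.0 CPM in C1, against 59.4, 25.7 and 143 CPM in C11. The clones overlapped in each tissue. On the log2 scale C1 against C11 gave 0.16 (SE 1.78) in UP, -0.45 (SE 0.31) in LB and -0.83 (SE 0.75) in AB, with edgeR adjusted p of 0.972, 0.437 and 0.625. The intervals were -4.18 to 4.50 in UP, -1.19 to 0.29 in LB and -2.63 to 0.97 in AB.

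ECR (Cula0015187), which encodes the enoyl-CoA reductase of the same elongation cycle, gave 0.23 (SE 0.31) in UP, 0.12 (SE 0.30) in LB and -0.32 (SE 0.46) in AB, with edgeR adjusted p of 0.734, 0.844 and 0.770. Its intervals were -0.54 to 0.99 in UP, -0.60 to 0.83 in LB and -1.41 to 0.77 in AB. Leaving out 1 library turned the sign of KCS1 in UP and AB and that of ECR in LB and AB.

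Between tissues both elongation genes were called. KCS1 was lower in UP than in AB by a log2 fold change of -4.88 (SE 0.96, edgeR adjusted p = 0.0160) and lower than in LB by -4.95 (SE 0.97, edgeR adjusted p = 0.0126). Its calls were lost without replicate 2 or replicate 3 of C1 UP, with adjusted p of 0.0683 and 0.0611 against AB and 0.0512 and 0.0519 against LB. ECR was lower in UP by -1.13 against AB (edgeR adjusted p = 0.0442) and by -1.21 against LB (edgeR adjusted p = 0.0273), calls kept in 4 and 10 of the 18 fits with 1 library left out. The call against AB was lost in the fit that paired libraries by replicate block (edgeR adjusted p = 0.0501) and without the filter on low counts (edgeR adjusted p = 0.0565). Whether KCS1 and the homologs differed in their tissue change was not tested. The deviations of KCS1 from its group means had an r of 0.240 with Cula0030227 and 0.0679 with Cula0014348, which 35.1% and 44.7% of all genes reached. For ECR r was 0.149 and -0.08.

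The wider elongation pathway was read from 15 genes, KCS1 and ECR included, that the study's KEGG annotation lists for fatty acid elongation within its pink network module. The study built that module from these libraries by grouping genes with like expression. Their counts of calls are therefore tied to one another and are no independent evidence. Between the clones edgeR called none of the 15 tested in AB, the 12 in UP and the 15 in LB, and DESeq2 called 0. None had an unadjusted p under 0.05, beside 19.8% of all genes (UP), 20.8% (LB) and 17.9% (AB). Their median log2 fold changes were 0.18 (UP), 0.12 (LB) and -0.41 (AB). Against the buds, 9 of 15 were called lower in UP than in AB and 10 of 15 lower than in LB, beside 1.98% and 2.4% of all genes, and all 15 had a negative log2 fold change. Their medians were -1.959 and -1.846, beside 0.02 and -0.00157 over all genes. These counts moved with single libraries, over a range of 1 (without replicate 2 of C1 UP) to 14 (without replicate 2 of C11 UP) against AB and 2 to 15 against LB for the same libraries.

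For brassinosteroid synthesis KEGG lists 6 genes in that module. Between the clones edgeR called 0 of 6 tested in AB, 0 of 4 in UP and 0 of 5 in LB, none had an unadjusted p under 0.05, and DESeq2 called 0. Their median log2 fold changes were 0.57 (UP), -0.22 (LB) and -0.28 (AB). In UP, 3 of the 6 were called lower than in AB and the same number lower than in LB, beside 1.98% and 2.4% of all genes. As the genes share a module built from these libraries, the count is no independent evidence. Of the genes called, Cula0027149 gave -4.79 and -5.23 and Cula0031126 gave -4.70 and -4.98 against AB and LB. The log2 fold change was negative for 5 of the 6, and Cula0032453 went the other way, at 0.83 and 0.96 without a call. Cula0009560 had no counts in any UP library. With this gene set at a bound of 3 counts over the 3 libraries of a group, the median of the 6 was -2.65 against AB and -2.77 against LB.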

How the data were processed

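Hisat2 was the aligner of the authors, with the Chinese fir genome as reference, and the counts they deposited are whole numbers for 18 libraries that were not normalized. How reads were counted, whether strand was used and what became of reads with several matches is not stated in the sources used here. The table held no column without a sample. CPM, log2(CPM + 1) and all tests were computed here from the counts.

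For tissues, 1 model of 6 groups took all 18 libraries, and for clones each tissue had a model of its own 6 libraries. Both used the quasi-likelihood test of edgeR 4.0.16 (R 4.3.3) with TMM factors and filterByExpr, and p was adjusted by Benjamini-Hochberg over all genes tested. A call needed at least a 2-fold change and an adjusted p under 0.05. Alternatives were DESeq2 1.42.0, RLE size factors, no filter, the replicate number as a block, 1 clone only, pseudocounts of 0.1 and 5, and each library left out. The fits were run on simulated counts with large changes and the same spread in both clones. Smaller changes and unequal spread were not covered. Python 3.11.15 with pandas 2.3.3, numpy 2.4.6, scipy 1.17.1 and matplotlib 3.10.9 made the tables and figures. Poisson intervals cover counting error only.

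The genes named are the 2 homologs, the listed genes, and the 5 genes most alike to each homolog by Pearson's r. The homologs and all lists were chosen with earlier results of these data known. The labels call the libraries replicates of a group, and the study calls them biological.

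To check whether replicate numbers pair libraries, deviations from the group means were correlated. Libraries of UP and AB with the same number had r of 0.102 to 0.488 within C1 and 0.243 to 0.406 within C11. Within C11 r was 0.458 to 0.658 for UP and LB and 0.475 to 0.739 for LB and AB. LB libraries of the 2 clones had r of 0.257 to 0.398, each above the minimum of 0.1. UP and LB in C1, LB and AB in C1, and the clones in AB and in UP had pairs below this minimum. Sequences of the genes and hormone levels were not analysed here.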

Additional observations from a re-analysis of the deposited data

How the results depend on the processing

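Of 551 values recomputed for 35 results, 504 were counted as keeping their direction and their side of the threshold. The tally left out the counts of all genes called and the tissue differences of KCS1 and ECR. Among these was the ECR call for UP against AB, kept in 4 of 18 fits with 1 library left out. For the homologs between clones the tally did not follow calls. DESeq2 called Cula0014348 in AB and Cula0030227 in LB where edgeR did not, and both values count as kept. No tissue difference of the BEH4 homologs crossed the threshold under any alternative run. With the replicate number as a block, the tissue differences of Cula0030227 were -1.31 (UP against AB), -1.958 (UP against LB) and 0.65 (LB against AB), and those of Cula0014348 were -0.78, -1.01 and 0.23. The block changed no call of the homologs between tissues. Leaving out 1 library at a time gave -1.46 to -0.50, -2.31 to -1.48 and 0.47 to 1.34 for Cula0030227, and -0.97 to -0.22, -1.36 to -0.43 and -0.055 to 0.67 for Cula0014348, the last of which changed sign.

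For C1 against C11, leaving out 1 library gave -4.20 to -2.80 in AB, -3.65 to -2.08 in UP and -4.45 to -3.24 in LB for Cula0030227. For Cula0014348 it gave -2.25 to -1.31, -1.86 to -0.33 and -2.41 to -1.12. With the block the UP changes were -1.90 and -0.62. For KCS1 the range was -1.68 to 0.031 in AB and -0.85 to 5.56 in UP, and for ECR -0.67 to 0.18 in AB and -0.12 to 0.34 in LB, with changes of sign in each. Between LB and AB it was -0.14 to 0.50 for KCS1 and -0.058 to 0.33 for ECR, with changes of sign in both. The cause was not tested.

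Counts of called genes moved more. With DESeq2, 1817 genes were called for UP against AB (712 with edgeR), 2052 for UP against LB (949) and 16 for LB against AB (0). Between the clones DESeq2 called 3056 in AB (1093 with edgeR), 3643 in UP (951) and 3795 in LB (1040). The block gave 1175 and 1517 for UP against AB and LB, and 0, 0 and 528 for the clones in AB, UP and LB. Without the filter 524 genes were called in UP and 663 in LB, and in the fit of all 18 libraries 2054 in UP and 1814 in LB. Leaving out 1 library gave 234 to 1054 (UP against AB), 392 to 1198 (UP against LB), 85 to 552 (clones in AB), 0 to 2683 (UP) and 7 to 1689 (LB). Of the 10 brassinosteroid genes named by the study, DESeq2 called 10 in AB between the clones (6 with edgeR) and 2 for UP against AB (1), the block 0 in AB and 0 in UP, and no filter 4 in LB (7). With 1 library left out their calls were 0 to 5 in AB, 0 to 10 in UP, 0 to 7 in LB and 0 to 1 for UP against AB. The elongation genes called were 1 to 14 against AB and 2 to 15 against LB. The r of deviations between Cula0030227 and SD25 was 0.978 in C1 alone, a setting chosen after seeing the data, as were all alternatives for the lists. With 3 libraries a group and a wider spread in C11 than in C1, the spread between replicates sets the limit. Depth limits the values of libraries with few counts, such as the 2 counts of Cula0030227 and the 0 counts of KCS1 in replicate 3 of C11 UP.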
